A study of Mus musculus with 8 samples.

Results

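A set of 9 genes for enzymes that destroy, edit or limit the cell's own nucleic acid was followed in bone marrow-derived macrophages (BMDMs). The list held the Aicardi-Goutières-type enzymes Samhd1, Adar, Rnaseh2a, Rnaseh2b and Rnaseh2c and the DNases and lysosomal exonucleases Dnase2a, Dnase1l3, Pld3 and Pld4, and it left out Trex1, the DNase deleted in the mutant mice. The genes were matched by Ensembl identifier and made up 9 of the 54532 genes counted. All 9 passed the filter on low counts, which kept 14591 genes.

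Polyadenylated RNA was sequenced from 8 libraries in 4 groups of 2. The BMDMs came from the long bones of the hind legs of mice aged 6 to 8 weeks, either wild type (WT) or Trex1-/- (Trex1-KO), and had grown for 7 days in medium conditioned by L929 fibroblasts. WT and Trex1-KO cells received the vehicle DMSO, and Trex1-KO cells received one of 2 antagonists of STING, H151 or SN-011, for 12 h. H151 was given at 500 nM per the labels, which name no dose for SN-011, and the study's methods name the same concentration for both. No group carried an antagonist on a WT background, so an effect of either compound without the deletion was not measured. The study describes the 2 libraries of a group as independent experiments, the labels do not say whether they came from separate mice, and p-values measure the spread between these libraries. The SN-011 libraries were labelled with a treatment text of their own, and a batch, if there was one, cannot be told apart from SN-011.

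Total counts ran from 11845470 to 17284863 per library, so that 1 count was worth 0.0579 to 0.0844 CPM (counts scaled by library size). The CPM given below use library sizes corrected by TMM, the trimmed mean of M-values, and the intervals of fold changes come from the edgeR fit, which includes the spread between libraries. The Pearson correlation of log2 CPM within a group was 0.990 to 0.991, and replicates differed by more than counting noise (chi-square per degree of freedom 3.07 to 6.04). Trex1 had 0 counts in all 8 libraries, WT included, and all 1147 of its exonic bases are shared with exons of another gene. The deletion could therefore not be checked on the counts, and the genotype rests on the labels. The 10 macrophage markers were detected in every group, with a summed level of 31401 to 33665 CPM per library, most of it Lyz2. Of these markers 3 were called higher in Trex1-KO, Fcgr1 (1.14 on the log2 scale), Cd68 (0.44) and Adgre1 (0.19), and Fcgr1 was called lower with H151 (-0.50) and SN-011 (-0.49). Markers of other cells moved with genotype. The summed level of 10 neutrophil and progenitor markers was 9.76 to 10.97 CPM in WT libraries and 67.6 to 100.3 CPM in the 6 Trex1-KO libraries, with Elane and Ly6g at 0 in WT. That of 10 fibroblast markers was 2252 to 2451 CPM in WT and 927 to 1294 CPM in the others, most of it collagens, while Dcn, Fap and Lum had higher means in Trex1-KO than in WT, and that of 10 lymphocyte markers, mostly Cd4, was 36.3 to 36.6 CPM in WT and 22.2 to 25.6 CPM in the others. Their part in the results on the enzymes was not tested. In bulk RNA, fewer cells of a type and less RNA per cell cannot be told apart.

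Cells carry sensors for DNA and RNA that are built to report infection but that also bind the cell's own molecules. The enzymes followed here keep such ligands scarce: SAMHD1 hydrolyses deoxynucleotides, ADAR converts adenosine to inosine in double-stranded RNA, RNase H2 removes ribonucleotides from DNA and the RNA of RNA:DNA hybrids, DNase II and the phospholipase D family exonucleases PLD3 and PLD4 degrade nucleic acid in the lysosome, and DNase1L3 is secreted and cuts DNA in chromatin and microparticles. Inherited loss of several of them causes interferonopathy or lupus-like disease, and in macrophages, which digest dead cells, STING relays the alarm raised by cGAS when cytosolic DNA is left undigested.

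In Trex1-KO BMDMs, 4 of the 9 genes were higher than in WT and none was called lower. Adar rose 2.06-fold and Samhd1 1.54-fold, and the lysosomal exonucleases Pld3 and Pld4 rose 1.19-fold each. A gene was called where edgeR's quasi-likelihood test, with Benjamini-Hochberg adjustment over all 14591 genes, gave a false discovery rate (FDR) under 0.05. In that comparison 9.27% of all tested genes were called higher (1352) and 7.11% lower (1038). Scaling by total counts in place of TMM turned this split to 946 higher and 1598 lower, and shifted the median of all genes by -0.085 on the log2 scale. The median log2 fold change of the 9 genes was 0.25 and that of all tested genes was -0.0020. At an unadjusted p under 0.05 the number was 6 of 9, the other two being Dnase1l3 and Rnaseh2c, and it was 3974 of the 14591 genes tested. With total counts 2 members were called higher (Adar and Samhd1) and 1 lower (Rnaseh2c).

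Both antagonists lowered the same pair, Adar and Samhd1, and no other member was called. With H151, 2 of 9 members were called lower and 0 higher than in Trex1-KO cells given vehicle, against 1.84% and 0.384% of all tested genes. With SN-011 the counts were also 2 lower and 0 higher, against 2.22% and 0.11%. DESeq2 gave the same 2 genes in both comparisons. These comparisons share the Trex1-KO libraries, and that with WT uses them too, so their values are set side by side and are not independent.

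**Figure D1:**
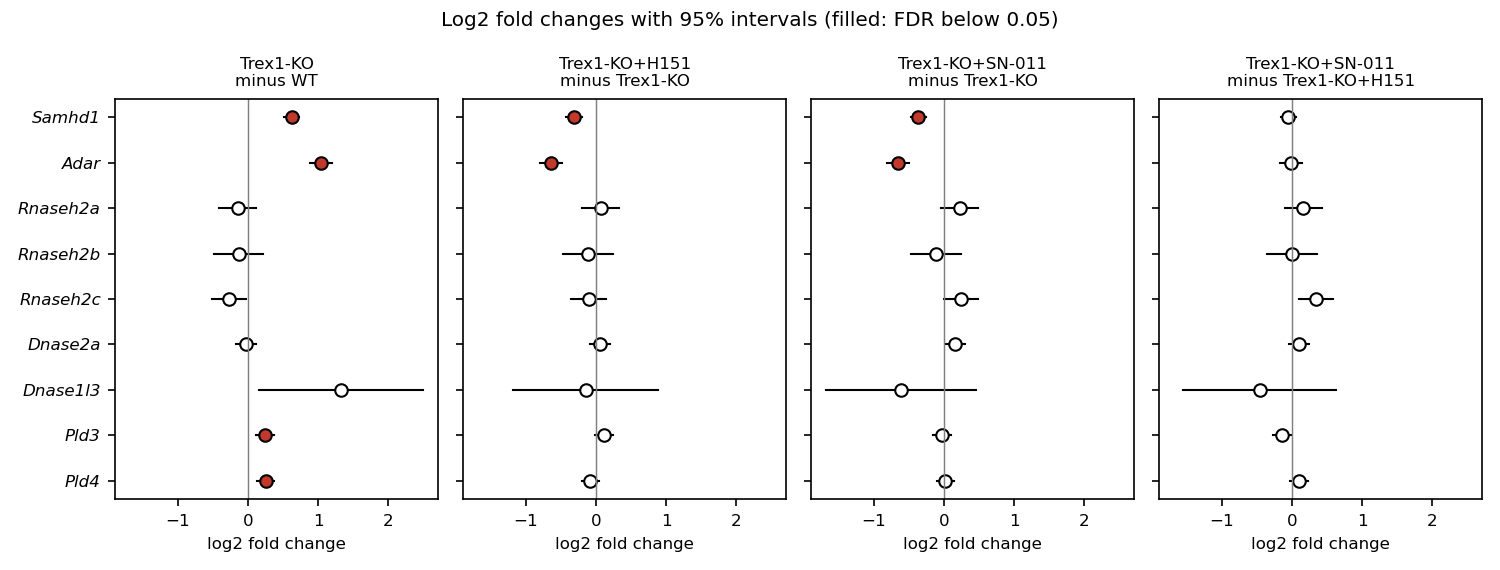
Log2 fold change of each of the 9 genes (horizontal axis) with its 95% interval in 4 comparisons, Trex1-KO minus WT, H151 minus Trex1-KO, SN-011 minus Trex1-KO and SN-011 minus H151; filled points passed an FDR of 0.05. Adar (1.04, then -0.64 and -0.65) and Samhd1 (0.62, then -0.31 and -0.36) moved up with the deletion and down with each antagonist, Pld3 and Pld4 (0.25 each) are filled for Trex1-KO minus WT alone, and no point is filled for SN-011 against H151.

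The 9 genes spanned a wide range of levels. Set per kilobase of exon not shared with another gene, which is the only scale on which genes are compared here, the mean WT level was 156 CPM per kb for Pld3 and 124 for Pld4, above 98.3% and 97.7% of the 14584 genes that could be ranked. Samhd1 followed at 75.8 CPM per kb (above 96.1%), then Dnase2a at 34.3 (90.3%), Rnaseh2c at 26.1 (86.9%) and Adar at 13.2 (74.5%). Rnaseh2a, at 6.56 CPM per kb, and Rnaseh2b, at 2.12, lay near and below the middle of the ranking (above 57.0% and 31.9%). Dnase1l3 was close to the bottom at 0.108 CPM per kb (above 1.65%). The order was the same in Trex1-KO libraries except for Adar, which reached 27.3 CPM per kb (above 86.8%) and passed Rnaseh2c, at 21.5. With either antagonist Adar, at 17.4 and 17.3 CPM per kb, lay below Rnaseh2c again, at 20.0 and 25.5.

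**Figure D2:**
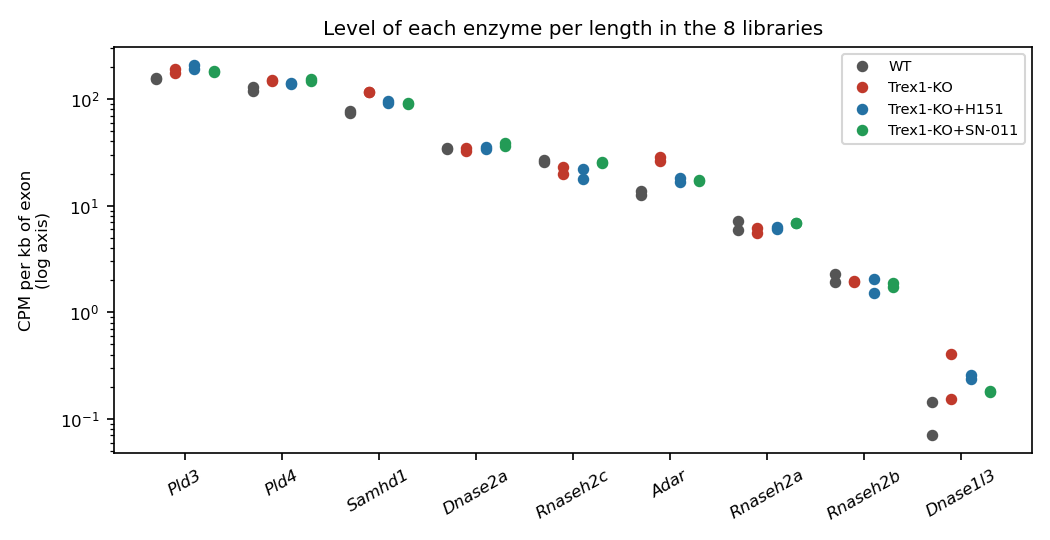
Level of the 9 genes (CPM per kilobase of unshared exon, logarithmic axis) in each of the 8 libraries, with 1 point per library coloured by group and genes ordered by their mean WT level. Mean WT levels run from 0.108 CPM per kb for Dnase1l3 to 156 for Pld3, and between groups the points separate most clearly for Adar and Samhd1.

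Samhd1 encodes a deoxynucleotide triphosphohydrolase that keeps the deoxynucleotide pool of non-dividing myeloid cells low. The gene (ENSMUSG00000027639) lies at chr2:157097533-157135265 on the minus strand of GRCm38, and none of its 9150 exonic bases is shared. Samhd1 measured 678 and 710 CPM in the WT libraries, 1062 and 1071 in Trex1-KO, 844 and 870 with H151, and 814 and 843 with SN-011. Both Trex1-KO libraries were higher than all 6 others, both WT libraries were the lowest, and the 4 antagonist libraries lay between without reaching either. The group means were 694 ± 22.8, 1066 ± 6.55, 857 ± 18.5 and 829 ± 21.2 CPM (SD, n = 2 each).

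Against WT, Samhd1 in Trex1-KO rose by a log2 fold change of 0.62 ± 0.05 (SE; 95% interval 0.51 to 0.73; edgeR adjusted p = 1.28e-06), larger than that of 93.4% of tested genes. H151 changed it by -0.31 ± 0.05 (interval -0.42 to -0.21; edgeR adjusted p = 0.00295) and SN-011 by -0.36 ± 0.05 (interval -0.47 to -0.25; edgeR adjusted p = 0.000920). The SN-011 call was lost without SN-011 replicate 1, where the adjusted p was 0.0505 at a log2 fold change of -0.34. Samhd1 stayed above WT in the treated cells, the log2 difference being 0.31 under H151 (edgeR adjusted p = 0.00114) and 0.26 under SN-011 (edgeR adjusted p = 0.00419). The SN-011 value was not past the threshold without WT replicate 1 (edgeR adjusted p = 0.0709) or without SN-011 replicate 2 (0.0977).

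The Samhd1 promoter is shown because the gene moved in every comparison with Trex1-KO. Promoter windows of 250 bases before and 50 after a RefSeq start site (build GRCm38.p6, written in the gene's direction) were found for 7 of the 9 genes, in 9 windows. They were searched on both strands for 3 motifs: the core of the interferon-stimulated response element (ISRE), GAAA followed after 2 bases by GAAA, which 3.44% of all 32851 windows hold; the interferon gamma-activated site (GAS) core TTCNNNGAA, in 8.30%; and the E-box CACGTG, in 7.15%. A shortened ISRE core, GAAANNGAA, in 8.56% of windows, was added after the Adar sequence had been seen. It overlaps the full core wherever that occurs. In the Samhd1 window (chr2:157135047-157135346, minus strand) the capitals mark a GAS core at position -235 from the start, and no other of these motifs was found.
Samhd1: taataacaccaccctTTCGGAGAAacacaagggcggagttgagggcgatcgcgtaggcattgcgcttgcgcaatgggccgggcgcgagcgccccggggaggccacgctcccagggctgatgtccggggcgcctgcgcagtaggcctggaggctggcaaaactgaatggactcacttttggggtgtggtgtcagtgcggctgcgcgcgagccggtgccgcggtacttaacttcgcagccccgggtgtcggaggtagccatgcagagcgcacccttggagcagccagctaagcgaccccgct

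The other 17 genes of deoxynucleotide supply and salvage did not move as a block. In Trex1-KO, 4 were called higher, 2 lower and 11 were not called, with a median log2 fold change of -0.04, and with total counts 4 were higher and 4 lower. Dck, the kinase that salvages deoxycytidine, measured 55.1 and 47.9 CPM in WT, 148 and 146 in Trex1-KO, 71.1 and 83.8 with H151 and 82.6 and 89.0 with SN-011. Its log2 fold change in Trex1-KO was 1.51 ± 0.09 (edgeR adjusted p = 4.95e-08). Cmpk2, a mitochondrial nucleotide kinase, rose by 1.95 ± 0.14 (edgeR adjusted p = 2.63e-07) and Pnp, which splits purine nucleosides, by 0.96 ± 0.08 (edgeR adjusted p = 1.47e-06). The fourth gene called higher was Rrm2b, the ribonucleotide reductase subunit of non-dividing cells (0.47), and those called lower were Rrm2, the subunit of dividing cells (-0.73), and Dut, which removes dUTP (-0.74). Dck, Cmpk2 and Pnp were the only genes of the 17 that either antagonist changed, by -0.92, -1.55 and -0.62 with H151 and by -0.78, -1.31 and -0.59 with SN-011.

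Adar encodes the editor of double-stranded RNA that keeps the cell's own duplexes from RNA sensors, and it is known to be transcribed from separate start sites, one of which is interferon-inducible and gives the long isoform. The gene (ENSMUSG00000027951) lies at chr3:89715022-89753446 on the plus strand, and 1365 of its 8118 exonic bases are shared with Chrnb2. Counts were made per gene, so the isoforms cannot be told apart. RefSeq gives 3 start sites. Capitals in the sequences below mark the GAS core and the shortened ISRE core. The most downstream window (chr3:89730468-89730767) holds a GAS core 23 bases and a shortened ISRE core 34 bases after the start, and a further shortened core at position -249. In the middle window (chr3:89714988-89715287), shown for contrast, and in the most upstream one none of the motifs was found.
Adar, downstream start: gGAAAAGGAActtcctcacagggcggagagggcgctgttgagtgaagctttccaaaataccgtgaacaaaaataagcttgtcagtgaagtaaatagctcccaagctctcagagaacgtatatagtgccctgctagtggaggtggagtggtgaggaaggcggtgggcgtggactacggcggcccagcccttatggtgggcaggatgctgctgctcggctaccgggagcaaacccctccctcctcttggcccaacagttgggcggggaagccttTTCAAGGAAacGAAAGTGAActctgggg
Adar, middle start: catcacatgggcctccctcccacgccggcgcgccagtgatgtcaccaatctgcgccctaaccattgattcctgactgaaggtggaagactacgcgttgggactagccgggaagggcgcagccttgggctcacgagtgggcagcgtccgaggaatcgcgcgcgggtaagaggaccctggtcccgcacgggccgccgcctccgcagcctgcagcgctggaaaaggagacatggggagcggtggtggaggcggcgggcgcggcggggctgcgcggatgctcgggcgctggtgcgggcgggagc

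Adar measured 93.6 and 85.3 CPM in WT, 192 and 176 in Trex1-KO, 113 and 123 with H151, and 118 and 116 with SN-011. Every Trex1-KO library was above every other, both WT libraries were the lowest, and the H151 and SN-011 libraries overlapped. Group means were 89.4 ± 5.92, 184 ± 11.4, 118 ± 7.40 and 117 ± 1.67 CPM (SD, n = 2 each). The log2 fold change in Trex1-KO was 1.04 ± 0.07 (interval 0.89 to 1.20; edgeR adjusted p = 2.49e-07), above that of 96.6% of tested genes. It was -0.64 ± 0.07 with H151 (interval -0.80 to -0.49; edgeR adjusted p = 0.000126) and -0.65 ± 0.07 with SN-011 (interval -0.81 to -0.50; edgeR adjusted p = 0.000127). Adar in treated cells was still above WT, by 0.40 under H151 (edgeR adjusted p = 0.00249; 0.0502 without WT replicate 2) while SN-011 cells exceeded it by 0.39 (edgeR adjusted p = 0.00290; 0.0533 without WT replicate 2).

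Sensors of nucleic acid were set beside Adar. Of 15 nucleic acid sensors and adaptors, 12 were called higher in Trex1-KO and 0 lower, with a median log2 fold change of 0.60, and 11 were higher with total counts. Zbp1, which binds Z-form nucleic acid, rose by 2.12 ± 0.12 (edgeR adjusted p = 3.05e-08), and the RNA helicases Dhx58 and Ddx58 by 1.51 ± 0.12 and 1.47 ± 0.09. The 3 not called were the adaptors Tmem173 (STING, 0.23, edgeR adjusted p = 0.129) and Mavs and the Toll-like receptor chaperone Unc93b1. H151 lowered 8 of the 15 (median -0.52) and SN-011 7 (median -0.42), and neither raised any. Aim2, Tlr7, Tlr8 and Tlr13 were called higher in Trex1-KO and were not called with either antagonist. Across 21 interferon-stimulated genes taken as a yardstick, all 21 were called higher in Trex1-KO with a median log2 fold change of 2.19, 21 fell with H151 (median -1.28) and 19 with SN-011 (median -1.09). In each of these comparisons the changes of Adar and Samhd1 were smaller in size than the yardstick's median.

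Among other deaminases, 6 of the 11 listed could be tested. Apobec3, a restriction factor that deaminates cytosine in single-stranded DNA, rose in Trex1-KO by 0.59 ± 0.08 (edgeR adjusted p = 0.000145), fell by 0.49 with H151 (edgeR adjusted p = 0.00321) and fell by 0.62 with SN-011 (edgeR adjusted p = 0.000499). Apobec1, which edits messenger RNA, rose by 0.24 ± 0.05 (edgeR adjusted p = 0.00350), and the other 4 were not called in these comparisons. With total counts 1 of the 6 was higher and 1 lower.

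The 3 subunits of RNase H2 were not called in Trex1-KO against WT. Rnaseh2a encodes the catalytic subunit (ENSMUSG00000052926, chr8:84956610-84969767, minus strand; 14.7% of exonic bases shared with Prdx2 and Gm49661). It measured 21.5 and 17.8 CPM in WT, 18.6 and 16.8 in Trex1-KO, 18.0 and 18.9 with H151 and 20.8 and 20.6 with SN-011. The WT libraries overlapped those of every other group, and the log2 fold change in Trex1-KO was -0.15 ± 0.12 (interval -0.41 to 0.11; edgeR adjusted p = 0.487).

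Rnaseh2b, the accessory subunit that binds the replication clamp (ENSMUSG00000021932, chr14:62292589-62372992, plus strand; 1.06% shared with Dleu7), measured 12.0 and 14.2 CPM in WT, 11.8 and 12.1 in Trex1-KO, 9.29 and 12.6 with H151 and 10.6 and 11.6 with SN-011. WT and Trex1-KO overlapped, the H151 libraries were the furthest apart, and the log2 fold change in Trex1-KO was -0.13 ± 0.16 (interval -0.48 to 0.22; edgeR adjusted p = 0.662).

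Rnaseh2c, the other accessory subunit (ENSMUSG00000024925, chr19:5601873-5607019, plus strand; 24.8% shared with Kat5), measured 33.0 and 34.4 CPM in WT, 25.7 and 29.7 in Trex1-KO, 23.1 and 28.5 with H151 and 32.5 and 33.4 with SN-011. Both Trex1-KO and both H151 libraries lay below the WT pair, while the SN-011 libraries overlapped WT. The log2 fold change was -0.28 ± 0.11 in Trex1-KO (interval -0.52 to -0.04; edgeR adjusted p = 0.122) and passed the threshold with total counts (-0.36, edgeR adjusted p = 0.0363). H151 against WT gave -0.38 ± 0.11 (edgeR adjusted p = 0.0446), the only member called lower in any comparison with WT, and that call held in 6 of 11 alternatives. It was lost in DESeq2 (adjusted p = 0.0987), among others. SN-011 against H151 gave 0.35 ± 0.11 (interval 0.10 to 0.59; edgeR adjusted p = 0.435).

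RNase H2 acts behind the replication fork, and genes of DNA replication and division stood beside it. Of 20 such genes 1 was called in Trex1-KO, Pcna, the clamp itself (0.21 ± 0.07, edgeR adjusted p = 0.0418), and 0 with either antagonist. With total counts 0 of the 20 were higher and 1 was lower in Trex1-KO, and 1 was higher with SN-011 than in Trex1-KO. Against WT, 2 of the 20 were called higher with H151 (10%) and 4 with SN-011 (20%), and 0 lower with either. The shares of all tested genes called higher were 6.79% and 6.18%. Total counts left 1 and 3 of them. Of 15 other RNases and RNA decay factors, 3 rose in Trex1-KO, the organellar exonuclease subunit Pnpt1 (0.59 ± 0.10) and the 5′ exonucleases Xrn1 (0.39 ± 0.07) and Xrn2 (0.33 ± 0.06). Xrn2 was also the one of them that fell with each antagonist, by 0.25 in both (edgeR adjusted p = 0.0453 with H151 and 0.0377 with SN-011), and neither of these calls held with total counts. Of 13 other DNases and subunits of DNase complexes tested, 1 was called, Rad50 (0.30 ± 0.08, edgeR adjusted p = 0.0175), and with total counts there was none. Rad50 is a subunit of the double-strand break resection complex and not its nuclease.

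**Figure D3:**
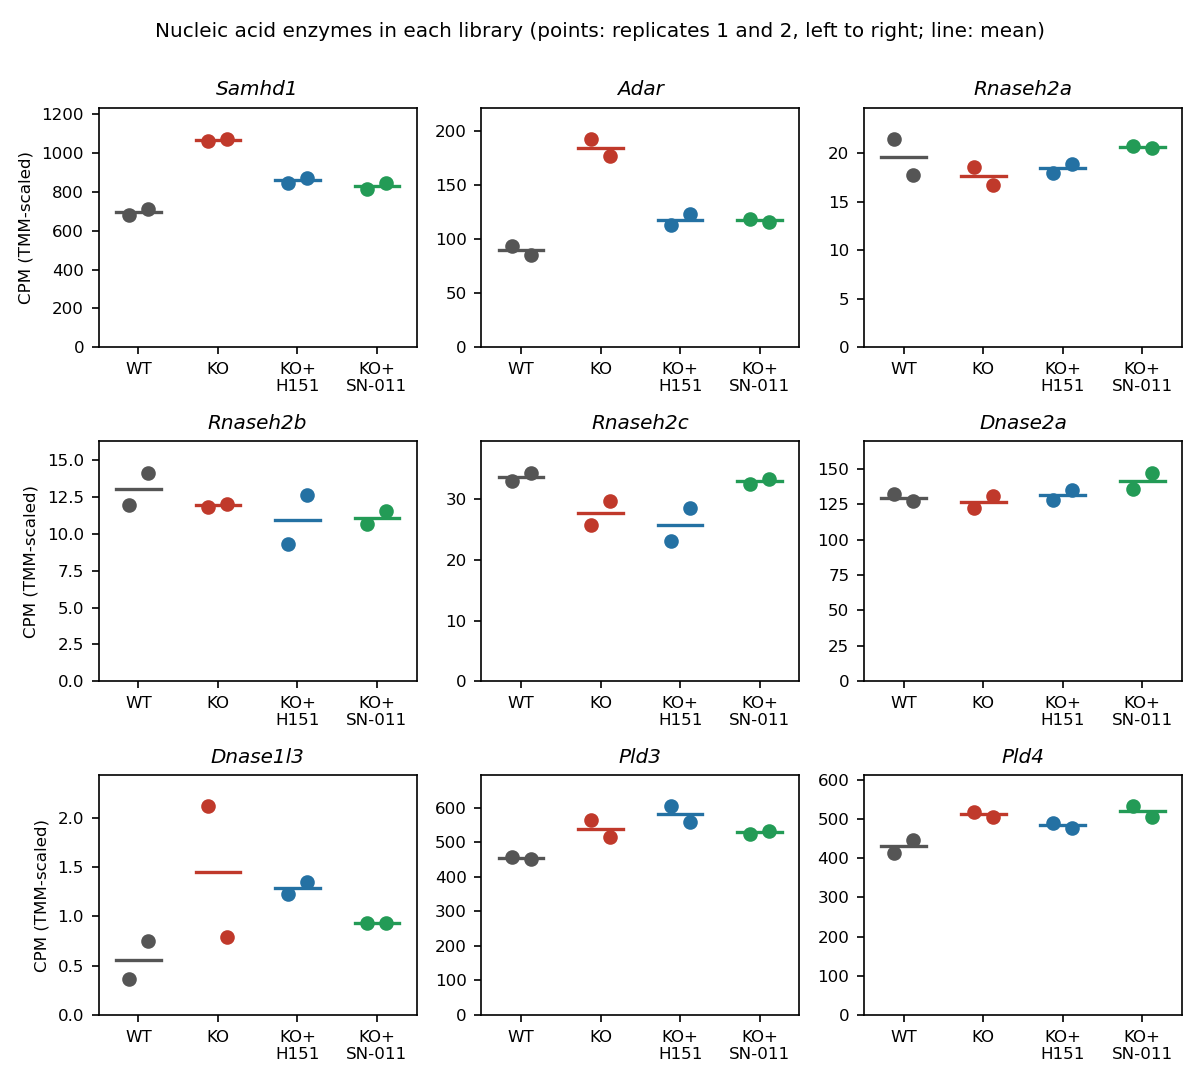
CPM of each of the 9 genes in each library (points, 2 per group) with the group mean as a line, in 9 panels whose vertical axes start at 0. Samhd1 and Adar show the Trex1-KO pair above all other libraries, Pld3 and Pld4 show the WT pair below all others, Rnaseh2c shows the Trex1-KO and H151 pairs below the WT pair, and Rnaseh2a, Rnaseh2b and Dnase2a show WT and Trex1-KO pairs that overlap.

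Dnase2a, the acid endonuclease that digests engulfed DNA in the lysosome (ENSMUSG00000003812, chr8:84908560-84922915, plus strand; 1616 of 5389 exonic bases shared with Mast1), was not called in any comparison. It measured 132 and 127 CPM in WT, 122 and 131 in Trex1-KO, 128 and 135 with H151 and 136 and 147 with SN-011. WT, Trex1-KO and H151 libraries overlapped, and the SN-011 pair was the highest. The log2 fold change in Trex1-KO was -0.03 ± 0.07 (interval -0.18 to 0.11; edgeR adjusted p = 0.817). SN-011 against Trex1-KO gave 0.16 (interval 0.01 to 0.30; edgeR adjusted p = 0.357).

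Pld3 and Pld4 are single-strand exonucleases of the endolysosome that trim ligands of Toll-like receptors. Pld3 (ENSMUSG00000003363, chr7:27532000-27553218, minus strand, no shared exonic base) measured 457 and 453 CPM in WT, 564 and 515 in Trex1-KO, 603 and 559 with H151 and 525 and 532 with SN-011. Both WT libraries were below the other 6, among which the Trex1-KO pair spanned the SN-011 pair and overlapped the H151 pair. Group means were 455 ± 3.18, 539 ± 34.2, 581 ± 31.6 and 529 ± 5.35 CPM (SD, n = 2 each). The log2 fold change in Trex1-KO was 0.25 ± 0.06 (interval 0.12 to 0.37; edgeR adjusted p = 0.0113). With the antagonists it was 0.11 ± 0.06 for H151 (edgeR adjusted p = 0.664) and -0.03 for SN-011 (interval -0.16 to 0.10; edgeR adjusted p = 0.896).

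Pld4 (ENSMUSG00000052160, chr12:112760655-112768990, plus strand, no shared exonic base) measured 413 and 446 CPM in WT, 518 and 505 in Trex1-KO, 490 and 477 with H151 and 531 and 506 with SN-011. The WT pair was again below the other 6, and the H151 pair was below the Trex1-KO pair. Group means were 430 ± 23.6, 512 ± 8.85, 483 ± 8.86 and 519 ± 18.1 CPM (SD, n = 2 each). The log2 fold change in Trex1-KO was 0.25 ± 0.06 (interval 0.13 to 0.37; edgeR adjusted p = 0.00702), and it was -0.08 with H151 (interval -0.20 to 0.04; edgeR adjusted p = 0.780) and 0.02 with SN-011 (interval -0.10 to 0.14; edgeR adjusted p = 0.927). In size, the H151 lower bound of -0.20 lay within the Trex1-KO interval of 0.13 to 0.37, and the SN-011 bound of -0.10 lay below it. These comparisons share the Trex1-KO libraries, so the intervals do not decide whether H151 returned Pld4 to its WT level.

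The calls for both genes depended on the scaling and on single libraries. With total counts Pld3 in Trex1-KO was 0.16 (edgeR adjusted p = 0.0978) and Pld4 0.17 (edgeR adjusted p = 0.0675). Pld3 also lost its call without WT replicate 1 (edgeR adjusted p = 0.0785), WT replicate 2 (0.0938) or Trex1-KO replicate 1 (0.175), and Pld4 without WT replicate 1 (0.127) or Trex1-KO replicate 1 (0.0668). The Pld3 window (chr7:27553169-27553468, minus strand) is shown because it was the only one of the 9 with a full ISRE core, marked in capitals at position -247, and this gene was not called lower with either antagonist. None of the motifs was found in the windows of Pld4, Dnase2a or Rnaseh2c, and that of Rnaseh2a held a GAS core 17 bases after the start.
Pld3: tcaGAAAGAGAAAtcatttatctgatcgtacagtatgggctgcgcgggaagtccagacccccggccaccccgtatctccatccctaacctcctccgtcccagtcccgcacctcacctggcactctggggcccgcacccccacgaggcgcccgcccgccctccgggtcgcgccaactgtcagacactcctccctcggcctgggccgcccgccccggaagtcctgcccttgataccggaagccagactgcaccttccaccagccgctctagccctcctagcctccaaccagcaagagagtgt

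Other lysosomal genes were counted beside them. Of 26 lysosomal enzymes, membrane proteins and their regulators, 17 were called higher in Trex1-KO (65.4%), 1 lower and 8 not, with a median log2 fold change of 0.24. With total counts 11 were higher and 1 lower, with a median of 0.16. The largest changes were in Acp5, the tartrate-resistant acid phosphatase (1.21 ± 0.19, from 4.52 ± 1.18 to 10.5 ± 0.255 CPM), and, downward, in Glb1, the lysosomal beta-galactosidase (-1.01 ± 0.07, from 125 ± 0.675 to 62.1 ± 4.76 CPM). H151 raised 1 of the 26, the cysteine protease Ctsl (0.33, edgeR adjusted p = 0.00373), and lowered none. SN-011 lowered 1, the acid phosphatase Acp2 (-0.30, edgeR adjusted p = 0.0206), and raised none. In the treated cells 16 (H151) and 14 (SN-011) of the 26 were called above WT, and with total counts 10 and 12.

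**Figure D4:**
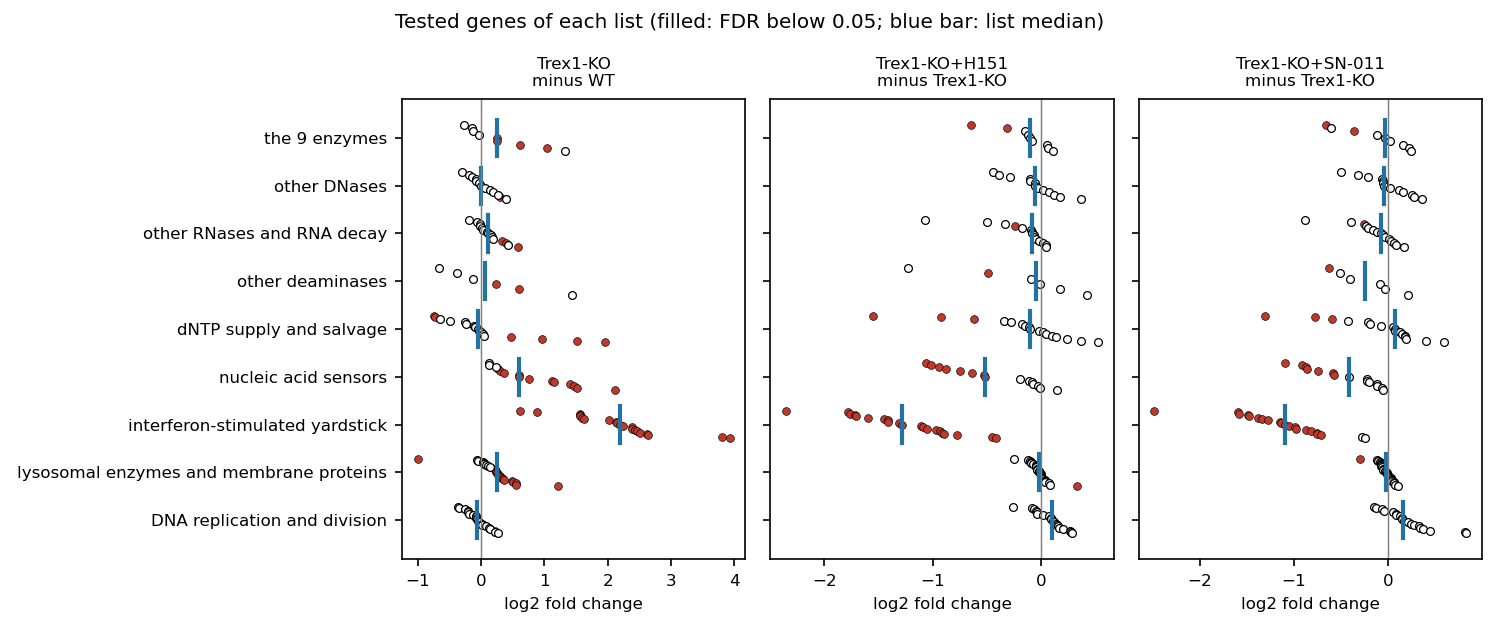
Log2 fold changes of the single genes of each list (points) with the list median (bar) for Trex1-KO minus WT, H151 minus Trex1-KO and SN-011 minus Trex1-KO. Interferon-stimulated genes (medians 2.19, -1.28 and -1.09) and sensors (0.60, -0.52 and -0.42) had medians above 0 with the deletion and below 0 with each antagonist, and lysosomal genes had a median of 0.24 with the deletion and of -0.02 with either antagonist.

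Dnase1l3, which is made mainly by dendritic cells and some macrophages (ENSMUSG00000025279, chr14:7964533-7994573, minus strand, no shared exonic base), was barely detected. It had 5 and 11 counts in WT, 28 and 12 in Trex1-KO, 15 and 20 with H151 and 16 and 11 with SN-011, or 0.368 and 0.746 CPM, 2.11 and 0.791, 1.22 and 1.34, and 0.931 and 0.934. The WT pair was the lowest, but the 2 Trex1-KO libraries were further apart than any other pair. The log2 fold change in Trex1-KO was 1.33 ± 0.54 (interval 0.16 to 2.50; edgeR adjusted p = 0.127). It was called in 1 of 11 alternatives, without Trex1-KO replicate 2 (1.89, edgeR adjusted p = 0.0341). Neither antagonist gave a call (-0.15, edgeR adjusted p = 0.985 for H151 and -0.61, 0.677 for SN-011).

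Dendritic cell markers were low. The summed level of 10 markers was 1.97 to 3.46 CPM per library in WT, 4.09 to 5.13 in Trex1-KO, 3.10 to 4.70 with H151 and 3.49 to 3.82 with SN-011, with Cd209a at 0 in every library. Of the 3 that could be tested, Clec9a (0.368 and 0.203 CPM in WT, 1.81 and 1.71 in Trex1-KO) and Xcr1 (0.221 and 0.0678, then 1.21 and 0.989) were called higher in Trex1-KO (edgeR adjusted p = 0.00237 and 0.00965). The means of Zbtb46 (1.43 CPM in WT and 0.566 in Trex1-KO) and Flt3 (0.277 and 0.0659) lay the other way, Zbtb46 not being called and Flt3 being too low to test, and the summed level with H151 overlapped that in WT. Their part in the Dnase1l3 values was not tested.

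The 2 antagonists are chemically distinct and were compared on all 9 genes. None was called between SN-011 and H151 by edgeR's quasi-likelihood test or by DESeq2, and 2 had an unadjusted edgeR p under 0.05, Rnaseh2c and Pld3, as did 1300 of the 14591 genes tested. Of all tested genes, SN-011 cells had 0% called higher and 0.158% called lower in that comparison. The difference was -0.01 for Adar (interval -0.17 to 0.15; edgeR adjusted p = 0.981) and -0.05 for Samhd1 (interval -0.16 to 0.06; edgeR adjusted p = 0.807), so a difference between the compounds on Adar beyond 0.17 in either direction lay outside the interval. Pld4 differed by 0.10 (interval -0.02 to 0.22) and Pld3 by -0.14 ± 0.06 (interval -0.27 to -0.01; edgeR adjusted p = 0.548). The nominal dose and time were the same per the study's methods, and a p that misses the threshold does not show that the compounds act alike.

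For some members, treated cells still differed from WT. With H151, 3 of the 9 genes were called above WT (Samhd1, Adar and Pld3) and Rnaseh2c below, against 6.79% and 5.04% of all tested genes. Pld3 was 0.35 above WT with H151 (edgeR adjusted p = 0.00132) and held in 11 of 11 alternatives, while Pld4 was 0.17 above it (edgeR adjusted p = 0.0740). With SN-011, 4 of the 9 were called above WT (Samhd1, Adar, Pld3 and Pld4) and none below, against 6.18% and 5.57%. Pld3 was 0.22 above (edgeR adjusted p = 0.0307, and called in 6 of 11 alternatives) and Pld4 0.27 above (edgeR adjusted p = 0.00599, called in 9 of 11).

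Genes whose levels followed those of a member most closely over the 8 libraries were named for the 3 members with the widest range of group means, among the 10707 genes whose log2 CPM averaged 2 or more. The libraries fall into the same 4 groups for every gene, so these correlations are descriptions. For Adar they were Trim30a (Pearson r 0.998), Irgm1 (0.997) and Daxx (0.997), which are known interferon-responsive genes. For Samhd1 they were D17Wsu92e (0.990), Sp100 (0.989), a nuclear body protein, and A330023F24Rik (0.987). For Dnase1l3, whose range rests on 5 to 28 counts, they were 1110008P14Rik (0.957), Fbxo28 (0.950) and Snrk (0.948).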

How the data were processed

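The deposited values are raw read counts per Ensembl gene in each library, with no normalization. According to the study's methods the authors used Trimmomatic for trimming, hisat2 for alignment and featureCounts to count uniquely mapped pairs, whereas the submitters' processing notes list HISAT2, HTSeq and mm10. The labels and the methods also name different HiSeq instruments. Versions, the annotation release and the strand setting of the counting are not given in the sources used here. Of 1216 genes whose exonic bases all lie in exons of other genes, 28 had any count, so shared exon was left out of per-kilobase levels. Symbols and positions came from GENCODE M21 (GRCm38), which held 54495 of 54532 identifiers.

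Sample titles gave each library's group and replicate number, and every library was used. Tests used R 4.3.3 and edgeR 4.0.16 with TMM factors (0.973 to 1.04) and filterByExpr (minimum count 10, minimum total 15). A single quasi-likelihood fit held all 8 libraries and a mean for each group, and two-sided tests were adjusted by Benjamini-Hochberg over 14591 genes at an FDR of 0.05. The shared biological coefficient of variation was 0.0656. Standard errors derive from the F statistic. The scripts were tested on simulated data. Alternatives were total counts only, RLE size factors, a filter at 1 count, a replicate block, edgeR's exact test, only the 2 groups compared, DESeq2 1.42.0 and leaving out each library.

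The members and gene lists were chosen with earlier results of these data known. Named were all members, up to 3 called genes with the largest change per list and comparison, and the 3 most alike genes for the 3 members of widest range; Rrm2b, Rrm2, Dut, Tmem173, Mavs, Unc93b1, Aim2, Tlr7, Tlr8, Tlr13, Zbtb46, Flt3, Lyz2, Dcn, Fap and Lum were named after their values had been seen. One gene that this rule names is not reported here. Promoter sequences are from RefSeq.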

Additional observations from a re-analysis of the deposited data

How the results depend on the processing

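With 2 libraries a group, calls of small changes depended on single libraries. Called in all 11 alternatives were Adar in the comparisons of Trex1-KO with WT and of each antagonist with Trex1-KO, Samhd1 in Trex1-KO minus WT, H151 minus Trex1-KO and H151 minus WT, and Pld3 in H151 minus WT. Leaving out 1 library at a time gave 2 to 5 members called in Trex1-KO minus WT (2 without WT replicate 1 or Trex1-KO replicate 1, 5 without Trex1-KO replicate 2), 1 to 2 in SN-011 minus Trex1-KO (1 without SN-011 replicate 1), 2 to 4 in H151 minus WT (2 without WT replicate 2) and 1 to 2 in SN-011 minus WT, against 4 with all libraries (1 without WT replicate 1, and 2 without WT replicate 2 or either SN-011 library). A library left alone in its group was assumed to vary like the others. The log2 fold changes that turned direction were all uncalled: with total counts Dnase2a in H151 minus WT (-0.036), and when 1 library was left out (ranges over the left-out libraries) Dnase2a in Trex1-KO minus WT (-0.084 to 0.0055) and H151 minus WT (-0.024 to 0.049), Rnaseh2a in H151 minus WT (-0.23 to 0.045), SN-011 minus WT (-0.065 to 0.21) and H151 minus Trex1-KO (-0.0091 to 0.14), Rnaseh2b in H151 minus Trex1-KO (-0.37 to 0.080) and SN-011 minus H151 (-0.19 to 0.25), Rnaseh2c in H151 minus Trex1-KO (-0.27 to 0.037), Dnase1l3 in H151 minus Trex1-KO (-0.71 to 0.69) and SN-011 minus Trex1-KO (-1.17 to 0.24), Pld3 (-0.093 to 0.039) and Pld4 (-0.020 to 0.058) in SN-011 minus Trex1-KO, and Adar in SN-011 minus H151 (-0.069 to 0.056). Of 592 values under alternatives, 548 kept direction and side of the threshold, 24 lost a call, 2 gained one and 18 turned. Library numbers shared between groups were not taken to pair the samples: the correlation of replicate-1 deviations was 0.19 between Trex1-KO and H151, where pairing is possible, and -0.0163 to 0.0609 otherwise. A replicate block left the counts at 4 (Trex1-KO minus WT), 2 (H151 minus Trex1-KO) and 2 (SN-011 minus Trex1-KO) and changed no other member's call. Dnase1l3 rests on 5 to 28 counts per library.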
